A study of Mus musculus with 16 samples.

Results

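The genes described here are 62 mouse genes named for the primary cilium and the centrosome. They were chosen by symbol alone, as every row of the deposited count table that carried one of 5 prefixes followed by a number and at most 1 letter. The set held 14 Ift, 8 Bbs, 3 Tctn, 3 Nphp and 34 Cep genes, out of 35976 rows. All 62 passed the filter on low counts, so none was left out of the tests on 13891 genes. Ciliary genes with other kinds of symbol, such as the motors and most Joubert syndrome genes, fall outside the naming rule and were followed as separate lists.

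RNA was measured with BRB-seq, a bulk method that reads the 3′ end of transcripts from barcoded and pooled samples, in 16 libraries of neural tube organoids on day 4. The negative, low, medium and high gates are levels of FOXA2, the transcription factor of floor plate, endoderm and notochord, and each gate had 4 numbered libraries. Every gate shared the same background: the R1 mouse embryonic stem cell line, the FOXA2-Venus reporter and 18 hours of retinoic acid (RA). The gates therefore compare cells of 1 line under 1 treatment and hold no untreated control, and the sources used here do not give the clone, the method of separating cells or the number of organoids per library. Whether the numbered libraries came from separate cultures is not stated; the p-values therefore rest on library-to-library spread that may be technical.

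Total counts per library lay between 5451076 and 9961032 in the negative gate, 5527287 and 7930805 in low, 5155331 and 7017046 in medium, and 3268948 and 6517958 in high. Foxa2 RNA averaged 113 ± 18.2 CPM (counts scaled to a common library size) in the high gate and 2.91 ± 1.68 CPM in the negative gate (SD, n = 4 each). This RNA level follows the labels, and it is no independent check, since the gates are levels of FOXA2. The labels name embryonic stem cells as the cell type. Pou5f1, a defining gene of that state, had 64 counts over the 4 negative libraries and at most 12 over the 4 of any other gate. The 12 tested genes of pluripotency and epiblast summed to between 827.9 and 1414 CPM in negative libraries. Of these 12, 10 fell significantly from negative to high libraries. Whether the Pou5f1 counts reflect the cells or the counting of reads was not tested. Sox2 and Sox1, which mark neural progenitors, and Noto and Ferd3l were listed at 0 in all 16 libraries, so no level can be read for them.

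The primary cilium is a single antenna of microtubules that grows from a mother centriole, the basal body, when a cell is not dividing. Intraflagellar transport (IFT) trains carry cargo along it: IFT-B toward the tip with kinesin, IFT-A back to the base with dynein, and the BBSome escorts membrane proteins out. The transition zone, built with Tctn and Nphp proteins, gates its base, and many Cep proteins build centrioles, anchor them to the membrane or duplicate them. In the vertebrate neural tube, Sonic hedgehog signals through this organelle: Patched leaves the cilium, Smoothened enters, and Gli factors are regulated there. RFX transcription factors, which bind a palindromic motif called the X-box, and FOXJ1 in motile cells, are known regulators of ciliary genes.

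The 250 bases upstream of the start are shown for the 3 members that passed the test described below, because they are the windows in which regulator motifs were searched. They come from RefSeq on build GRCm38.p6 and run 5′ to 3′ on the strand of the gene, and capitals mark an X-box. Cep41 lies on the minus strand at chr6:30693750-30693999, Cep70 on the plus strand at chr9:99243091-99243340 and Cep95 on the plus strand at chr11:106789002-106789251.
Cep41: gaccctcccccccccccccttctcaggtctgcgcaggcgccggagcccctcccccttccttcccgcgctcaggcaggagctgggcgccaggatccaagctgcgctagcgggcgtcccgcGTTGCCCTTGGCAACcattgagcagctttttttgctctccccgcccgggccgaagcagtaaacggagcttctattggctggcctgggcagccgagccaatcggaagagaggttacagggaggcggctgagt
Cep70: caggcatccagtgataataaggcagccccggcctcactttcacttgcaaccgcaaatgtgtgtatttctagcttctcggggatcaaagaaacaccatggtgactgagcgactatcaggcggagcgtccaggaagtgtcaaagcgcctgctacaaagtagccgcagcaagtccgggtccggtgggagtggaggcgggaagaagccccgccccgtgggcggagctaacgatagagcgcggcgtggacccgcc
Cep95: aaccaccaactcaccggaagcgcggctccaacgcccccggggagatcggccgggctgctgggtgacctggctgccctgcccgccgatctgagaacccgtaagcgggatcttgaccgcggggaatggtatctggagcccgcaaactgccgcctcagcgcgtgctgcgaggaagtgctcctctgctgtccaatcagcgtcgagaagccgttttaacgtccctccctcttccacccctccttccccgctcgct

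The X-box was searched on both strands as GTTNCC, then 0 to 3 bases, then GGNAAC, in the 52 members with an entry in the promoter table. It was present in 4 of 52 members (7.69%) and in 213 of 27025 genes (0.788%). The half-site GTTGCC, which is contained in many X-boxes, was present in 9 of 52 members (17.3%) and in 3195 genes (11.8%). The 4 matches are shown as 30-base windows so that the paired half-sites can be compared. They lie at chr3:36613489-36613518 minus for Bbs7, chr6:30693858-30693887 minus for Cep41, chr16:49699226-49699255 plus for Ift57 and chr19:40612350-40612379 minus for Tctn3.
Bbs7: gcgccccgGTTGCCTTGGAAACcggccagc
Cep41: gtcccgcGTTGCCCTTGGCAACcattgagc
Ift57: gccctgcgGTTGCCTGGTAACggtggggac
Tctn3: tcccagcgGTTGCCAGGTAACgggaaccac
Every one of these 4 begins with the half-site GTTGCC. Cep41 is the single member of the 4 that passed the test between gates, and no X-box of these letters is in the windows of Cep70 and Cep95.

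Between the high and negative gates, 3 of 62 members changed (4.84%), against 16.8% of all genes tested. Cep70 alone was higher in the high gate, 1 member where 8.29% of all genes were, and Cep41 and Cep95 were lower, 2 members where 8.48% of all genes were. Among the 10211 genes in the members' range of mean CPM the background was 17.5%. These shares describe the set, and no test was made between them. DESeq2 called the same 3 members. The median member differed by 0.10 on the log2 scale, the median gene by 0.00, and 40 of 62 members had a positive difference. The median size of difference, whatever its sign, was 0.209 for members and 0.262 for all genes (log2).

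The intervals show how much room the data leave for change. The median half-width of the 95% interval was 0.376 on the log2 scale for members and 0.419 for all genes. In 54 of 62 members the whole interval lay within a 2-fold difference in either direction, and the widest half-width was 0.875, for Bbs7. A 2-fold shift between the extreme gates is thus outside the interval for most members. Without adjustment, 15 of 62 members had p below 0.05 (24.2%), against 28.9% of all genes.

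**Figure D1:**
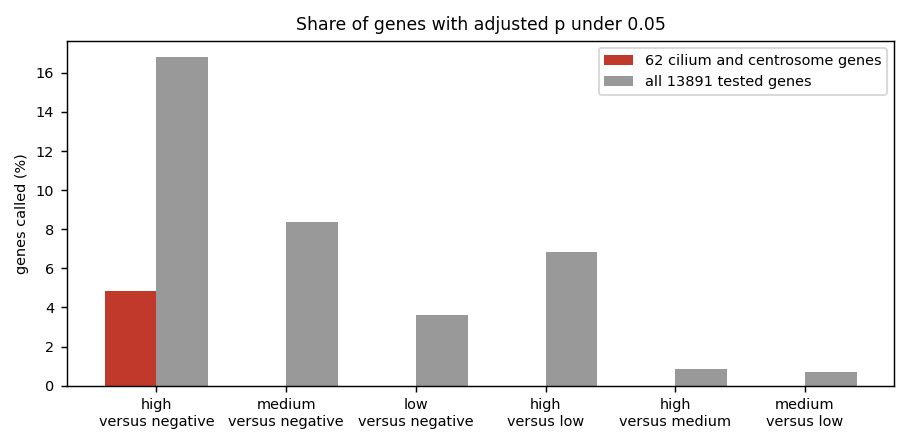
Share of genes with adjusted p under 0.05 (percent, y axis) in each of the 6 comparisons of gates, for the 62 cilium and centrosome genes (red) and for all 13891 tested genes (grey). A red bar appears in high versus negative alone, at 4.84% beside 16.8%.

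The other 5 comparisons gave no called member. The background was 8.39% in medium versus negative, 3.59% in low versus negative, 6.82% in high versus low, 0.835% in high versus medium and 0.705% in medium versus low. Members with an unadjusted p below 0.05 numbered 8, 5, 8, 6 and 2 in that order (12.9, 8.06, 12.9, 9.68 and 3.23%). The shares of all genes were 20.7, 14.6, 18.3, 9.07 and 7.29%. DESeq2, run as the alternative tool, called 1 member in medium versus negative, Cep192 (lower), and 0 in the other 4. In the test for any difference among the 4 gates no member passed, against 13.4% of all genes. Unadjusted, 7 members were below 0.05 there (11.3%), against 24.7% of all genes. DESeq2 called 2 there, Cep95 and Cep70.

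Cep41, at chr6:30653457-30693749 on the minus strand, encodes a centrosomal and ciliary protein needed for tubulin glutamylation in the cilium, and its human gene is a Joubert syndrome gene. It had 10.6, 10.1, 15.3 and 10.0 CPM in high libraries 1 to 4, against 19.1, 15.8, 19.5 and 18.9 CPM in the negative libraries. All 4 high libraries lay below all 4 negative ones, although high library 3 came close. The level fell to 11.5 ± 2.51 CPM in the high gate, against 18.3 ± 1.70 CPM in the negative gate (SD, n = 4 each). The log2 difference was -0.65 (SE 0.192, 95% interval -1.05 to -0.26, adjusted p = 0.0198 by edgeR's quasi-likelihood test).

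Low libraries averaged 17.1 ± 2.95 CPM of Cep41 and medium libraries 17.2 ± 3.63 CPM, near the negative gate. High against medium, the difference was -0.57 (adjusted p = 0.257), and high against low it was -0.55 (adjusted p = 0.0904), neither past the threshold. The high versus negative call depended on single libraries: without high 1, 2 or 4 the adjusted p was 0.0649, 0.0617 or 0.0572, with log2 differences of -0.61, -0.59 and -0.60. With every library thinned to the smallest total it was 0.0505.

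Cep70, at chr9:99243367-99300404 on the plus strand, encodes a centrosomal protein that binds γ-tubulin and takes part in microtubule organisation. It had 30.4, 29.3, 30.2 and 30.7 CPM in the high libraries, against 14.1, 19.3, 27.3 and 17.1 CPM in the negative libraries. The high libraries were nearly equal to each other, and none overlapped the negative ones, of which library 3 stood highest. The level rose to 30.2 ± 0.601 CPM in the high gate, against 19.4 ± 5.65 CPM in the negative gate (SD, n = 4 each), a log2 difference of 0.64 (SE 0.197, 95% interval 0.24 to 1.05, adjusted p = 0.0252).

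Along the 4 gates Cep70 averaged 19.4, 19.9, 26.0 and 30.2 CPM from negative to high. Low libraries, at 16.5 to 23.6 CPM, did not overlap high ones, and that log2 difference was 0.61 (adjusted p = 0.0641). The call between high and negative was lost without negative 1 (adjusted p = 0.0923), negative 2 (0.0545), negative 4 (0.0790), high 1 (0.0551) or high 4 (0.0511), with log2 differences of 0.52 to 0.64. It was also lost at equal depth, where the log2 difference was 0.47 (adjusted p = 0.202).

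Cep95, at chr11:106789252-106819930 on the plus strand, encodes a centrosomal protein of less settled function. It had 70.3, 47.0, 51.3 and 58.1 CPM in the high libraries, against 60.9, 95.5, 69.5 and 91.3 CPM in the negative libraries. The groups overlapped, since high library 1 lay above negative libraries 1 and 3. The level fell to 56.7 ± 10.2 CPM in the high gate, against 79.3 ± 16.7 CPM in the negative gate (SD, n = 4 each), a log2 difference of -0.48 (SE 0.150, 95% interval -0.79 to -0.17, adjusted p = 0.0268).

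The negative gate stood above the rest for Cep95: the 3 other gates averaged 60.5 ± 6.16 (low), 58.4 ± 7.33 (medium) and 56.7 ± 10.2 CPM (high). Medium against negative gave -0.44 (adjusted p = 0.0654) and low against negative -0.39 (adjusted p = 0.174). The call was lost without negative 2 (adjusted p = 0.111), negative 4 (0.0986), high 2 (0.0979) or high 3 (0.0873), with log2 differences of -0.39 to -0.43.

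Cep83 is described beside these because it missed the threshold narrowly and passed under several other settings. It encodes a distal appendage protein that docks the mother centriole to the membrane. It had 52.9, 69.8, 51.9 and 52.0 CPM in the high libraries, against 35.8, 34.4, 53.5 and 33.8 CPM in the negative libraries. Negative library 3 was the one that overlapped the high gate. The log2 difference was 0.53 (SE 0.190, 95% interval 0.14 to 0.92, adjusted p = 0.0569), and without negative 3 it was 0.71 (adjusted p = 0.0128). Without medium 2 the adjusted p was 0.0340 and without medium 4 it was 0.0395. It was 0.00563 with no filter on low counts, 0.0183 with the high and negative gates alone and 0.0247 at equal depth, within a range of 0.00342 to 0.188 over all settings tried.

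**Figure D2:**
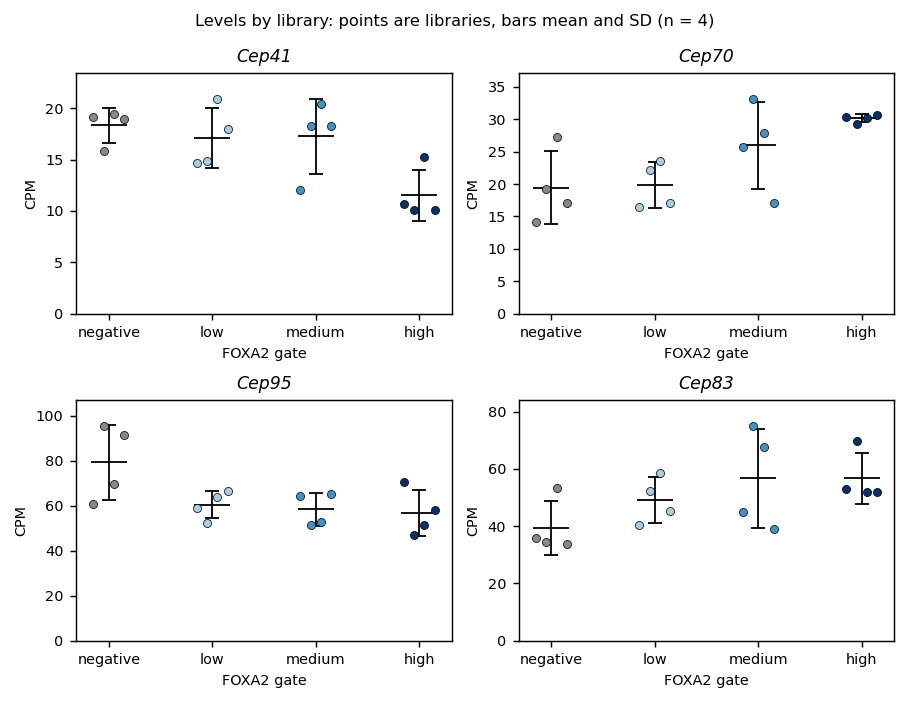
Level of Cep41, Cep70, Cep95 and Cep83 in CPM (y axis, from 0) in each library of the 4 FOXA2 gates (x axis); points are libraries and bars the mean and SD (n = 4). Cep41 is lowest in the high gate at 11.5 CPM, Cep70 highest there at 30.2 CPM, and Cep95 highest in the negative gate at 79.3 CPM.

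Each library is bulk RNA, so fewer cells of a type and less RNA per cell cannot be told apart for any of these genes. Several lists of marker genes moved strongly between the same gates. Among all genes tested, 8.29% were higher in the high gate and 8.48% lower. Of the tested markers, 8 of 8 floor plate, 5 of 5 notochord and 3 of 8 endoderm genes were higher in the high gate. These lists held 11, 8 and 12 genes, of which the others had too few counts to be tested. The floor plate genes include Foxa2, the gene of the factor whose level the gates are named for, and the median endoderm marker differed by -0.02 (log2). In the other direction, 10 of 12 pluripotency and epiblast, 9 of 10 neural progenitor, 4 of 7 neuronal and 6 of 12 S phase genes were lower.

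The summed floor plate markers, which include Foxa2, ran from 337.8 to 431.2 CPM in high libraries and from 55.2 to 68.2 CPM in negative libraries. The pluripotency and epiblast sum ran from 228.9 to 277.5 CPM in high libraries and from 827.9 to 1414 CPM in negative libraries. For neural progenitor markers it ran from 159.9 to 217.6 CPM in high libraries and from 472.4 to 556.0 CPM in negative libraries. Notochord markers summed to between 318.5 and 385.2 CPM in high libraries and between 111.3 and 133.5 CPM in negative libraries. Endoderm markers summed to between 304.7 and 319.4 CPM in high libraries and between 60.1 and 81.8 CPM in negative libraries. Of the 8 tested endoderm genes, only Sox17, Ttr and Cldn6 were called, and the list median was -0.02 (log2). None of these sums overlapped between the 2 gates, but the lists were chosen with earlier results of these data known. The member sums given below did overlap. They add genes with differences of both signs, so the 2 kinds of sum are not a like comparison.

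Neuronal markers summed to between 62.0 and 87.3 CPM in high libraries and between 148.3 and 224.3 CPM in negative libraries. S phase genes summed to between 2354 and 2515 CPM in high libraries and between 2970 and 3166 CPM in negative libraries; it is the phase in which centrioles duplicate. Of 15 genes of G2 and mitosis, 2 were higher, Top2a and Ube2c, and the sum was 2770 to 3320 CPM in high libraries and 2753 to 2885 CPM in negative libraries. The part of cell makeup or cycling in the 3 called members was not tested.

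The 14 Ift genes hold part of both train complexes, since other subunits have other symbols, and 0 of 14 was called. The 10 tested IFT subunits and adaptors under other symbols had a median log2 difference of -0.17 between high and negative. In IFT-A, which returns cargo to the cell body, the 3 members with this prefix had a positive difference, between 0.32 and 0.38 (log2). Ift43 gave 0.38 (adjusted p = 0.0765), Ift140 gave 0.37 (adjusted p = 0.103) and Ift122 gave 0.32 (adjusted p = 0.150). Ift140 had 25.6, 20.7, 27.9 and 21.0 CPM in the high libraries, against 16.7, 16.5, 16.4 and 24.0 CPM in the negative libraries. Negative library 4 was the one that overlapped. Leaving it out necessarily widened the difference, to 0.54 (adjusted p = 0.0228). Without high 3 the difference was 0.29 (adjusted p = 0.293), and at equal depth it was 0.28 (adjusted p = 0.312). Ift122 had 23.6, 30.6, 30.2 and 30.1 CPM in the high libraries, against 21.1, 20.5, 24.2 and 25.3 CPM in the negative libraries, and high library 1 was the one that overlapped.

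In the IFT-B core, which carries tubulin toward the tip, 4 of 7 members had a positive difference and the range ran from -0.28 for Ift22 to 0.35 for Ift81. Ift88, whose loss abolishes cilia in mouse embryos, had 36.4, 31.6, 30.8 and 28.6 CPM in the high libraries, against 21.9, 21.0, 32.2 and 31.5 CPM in the negative libraries. Negative libraries 1 and 2 were lower and 3 and 4 lay inside the high range, so the groups overlapped, with a log2 difference of 0.26 (95% interval -0.09 to 0.61). Ift81, which binds tubulin with Ift74, had 36.6, 50.1, 42.2 and 30.7 CPM in the high libraries, against 24.5, 26.0, 47.9 and 27.6 CPM in the negative libraries. Negative library 3 was the one inside the high range, and leaving it out necessarily widened the difference, to 0.61 (adjusted p = 0.0340). With all libraries the difference was 0.35 (adjusted p = 0.280), and without high 2 it was 0.23 (adjusted p = 0.564).

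Ift27, a small GTPase-like subunit that links IFT-B to BBSome exit, went the other way. It had 104.3, 102.4, 99.1 and 84.3 CPM in the high libraries, against 118.4, 128.8, 105.2 and 115.5 CPM in the negative libraries. The groups did not overlap, yet the log2 difference of -0.26 (adjusted p = 0.164) did not pass. Among the peripheral subunits of IFT-B, 1 of 4 had a positive difference. The values ran from -0.56 for Ift80 (95% interval -1.34 to 0.23) to 0.50 for Ift57 (95% interval 0.00 to 1.00), with Ift20, which sorts cargo at the Golgi, at -0.23 and Ift172 at -0.07.

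**Figure D3:**
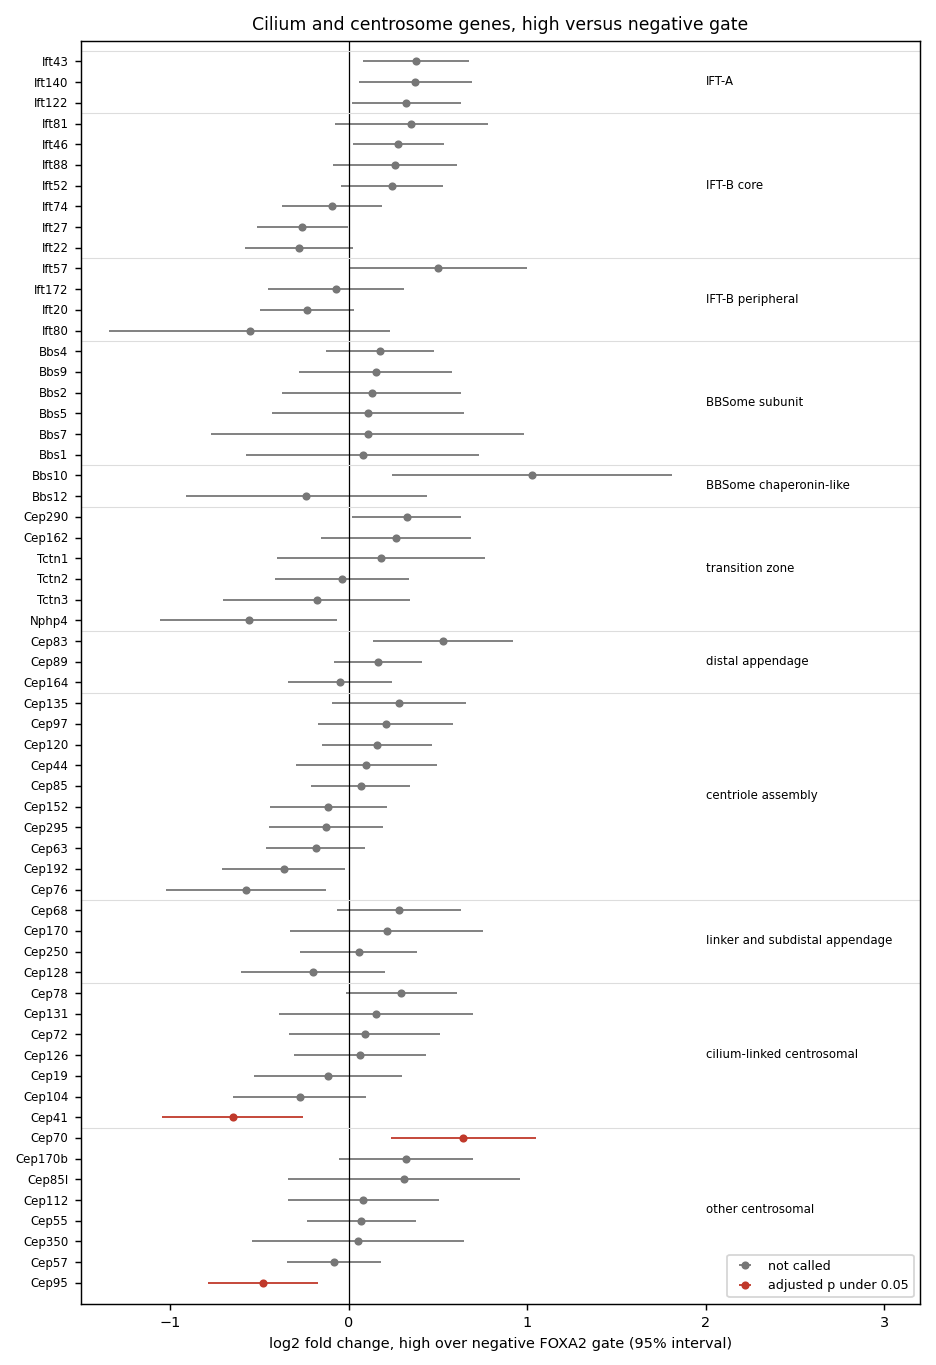
Log2 fold change of 60 members, high over negative gate (x axis), with its 95% interval, ordered by role. Red marks the 3 members with adjusted p under 0.05; most intervals cross 0.

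The 8 Bbs genes gave 0 calls. All 6 members that are BBSome subunits had a small positive difference, between 0.08 for Bbs1 and 0.18 for Bbs4, and none approached the threshold. Bbs4, the subunit that meets pericentriolar material, had 24.1, 22.3, 26.4 and 24.7 CPM in the high libraries, against 20.2, 25.5, 21.8 and 19.0 CPM in the negative libraries. These levels overlapped, and 194 exonic bases of Bbs4 lie opposite Adpgk. Bbs7 was the least precise member, with 3.16, 1.52, 1.70 and 3.04 CPM in the high libraries, against 3.08, 1.91, 1.27 and 2.35 CPM in the negative libraries.

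Bbs10 and Bbs12 resemble chaperonins and help assemble the BBSome. Bbs10 had 3.82, 2.78, 3.85 and 6.70 CPM in the high libraries, against 1.13, 2.95, 2.00 and 2.15 CPM in the negative libraries. High library 2 lay within the negative range. The log2 difference of 1.03 was the largest of any member between these gates, with a wide interval of 0.24 to 1.81 (adjusted p = 0.0662). Without high 2, the overlapping library, the difference was 1.17 (adjusted p = 0.0498). It was smaller without high 4, at 0.77 (adjusted p = 0.218), and without negative 1, at 0.83 (adjusted p = 0.174). Medium against negative gave a similar 1.04 (adjusted p = 0.0911), and Bbs12 gave -0.24 between high and negative (95% interval -0.91 to 0.44).

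Of the 7 transition zone members, which include the Tctn genes and Cep290, 4 had a positive difference and 0 were called. Cep290, which tethers the ciliary membrane to the microtubules, had 48.1, 55.1, 48.7 and 45.0 CPM in the high libraries, against 31.8, 39.9, 44.0 and 41.5 CPM in the negative libraries. The groups did not overlap, with a log2 difference of 0.33 (adjusted p = 0.144). Its exons share 881 bases with a gene on the opposite strand, 4930430F08Rik. The strand setting of the counting is not given, so the pair may share reads that cannot be told apart here.

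Nphp4, a nephronophthisis protein of the transition zone, had 5.16, 6.32, 4.62 and 5.17 CPM in the high libraries, against 8.42, 7.64, 8.74 and 6.55 CPM in the negative libraries. The high libraries were all lower, by -0.56 on the log2 scale (95% interval -1.06 to -0.06, adjusted p = 0.118). Tctn2 gave -0.04 and Tctn3 -0.18, and Tctn1 gave 0.18, of which the last shares 1574 exonic bases with Hvcn1 on the opposite strand.

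The distal appendage genes were Cep83, described above, Cep89 and Cep164. Cep89 had 59.9, 63.5, 58.6 and 58.4 CPM in the high libraries, against 54.3, 56.9, 48.8 and 54.4 CPM in the negative libraries, which did not overlap although the log2 difference was 0.16 (adjusted p = 0.404). Cep164, which recruits the kinase that licenses ciliogenesis, gave -0.05 (95% interval -0.34 to 0.24). Of all 62 members, 8 had high and negative libraries that did not overlap (12.9%), against 21.6% of all genes. Those higher were Cep70, Cep290 and Cep89, and those lower were Cep41, Nphp4, Cep192, Ift27 and Ift22.

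The 10 centriole assembly members split evenly, 5 positive and 5 negative, from -0.58 for Cep76 to 0.28 for Cep135, with 0 called. Cep76, which limits centriole reduplication, had 11.8, 7.33, 11.4 and 8.52 CPM in the high libraries, against 16.5, 10.6, 18.6 and 13.8 CPM in the negative libraries (adjusted p = 0.0713), and negative library 2 overlapped the high gate. Cep192, which recruits the kinases of centriole duplication and the spindle, differed most in the medium gate: it had 13.8, 13.7, 16.8 and 17.8 CPM there, against 22.8, 21.9, 22.9 and 21.4 CPM in the negative gate. The groups did not overlap, and the log2 difference was -0.52 (95% interval -0.86 to -0.18, adjusted p = 0.0524). Cep152, the Plk4 scaffold, gave -0.12 and Cep63, its partner, gave -0.19 between high and negative, but Cep63 shares 239 exonic bases with Anapc13 on the opposite strand, which had far more counts (46112).

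Among linker and subdistal appendage genes, Cep68 gave 0.28 and Cep250 gave 0.05, and 0 of 4 were called. Cep128, of the subdistal appendage, had 8.77 ± 2.03 CPM in the medium gate and 13.0 ± 2.09 CPM in the negative gate (SD, n = 4 each), a log2 difference of -0.56 (adjusted p = 0.0798). Low against negative, it gave -0.52 (adjusted p = 0.165) and the groups did not overlap. High against negative it gave -0.20, with an interval of -0.60 to 0.21. Between the same gates, 4 of 7 cilium-linked centrosomal members were positive, with a range from -0.65 for Cep41 to 0.29. Of 8 other centrosomal members 6 were positive, from -0.48 for Cep95 to 0.64 for Cep70. Both groups hold called members, Cep41 in the first and Cep95 and Cep70 in the second.

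Cep55, best known as a midbody protein of cell division, was lowest in the medium gate. It averaged 23.9 ± 2.48, 25.4 ± 2.18, 19.4 ± 2.49 and 25.3 ± 3.62 CPM from negative to high. Medium against low gave -0.38 (95% interval -0.69 to -0.08, adjusted p = 0.441), and no other member had a smaller adjusted p in that comparison. Cep57, a protein of the pericentriolar material, gave -0.08 between high and negative (95% interval -0.34 to 0.18).

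Summed over the Ift, Cep, Bbs or Tctn genes, the level differed little along the gates, and no test was made of these sums. The 14 Ift genes together had 526.7 ± 7.34, 550.2 ± 14.9, 543.5 ± 36.0 and 542.1 ± 22.0 CPM from negative to high (SD, n = 4 each). The 34 Cep genes together had 1032 ± 37.8, 1044 ± 61.7, 1033 ± 67.5 and 1043 ± 24.6 CPM. For both prefixes the libraries of the 4 gates overlapped.

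The 8 Bbs genes had 59.7 ± 9.79, 63.7 ± 2.49, 64.9 ± 4.54 and 66.0 ± 5.37 CPM from negative to high. The 3 Tctn genes had 34.9 ± 4.13, 36.5 ± 1.48, 34.7 ± 3.35 and 34.6 ± 3.17 CPM. In both prefixes the libraries of the negative and high gates overlapped.

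**Figure D4:**
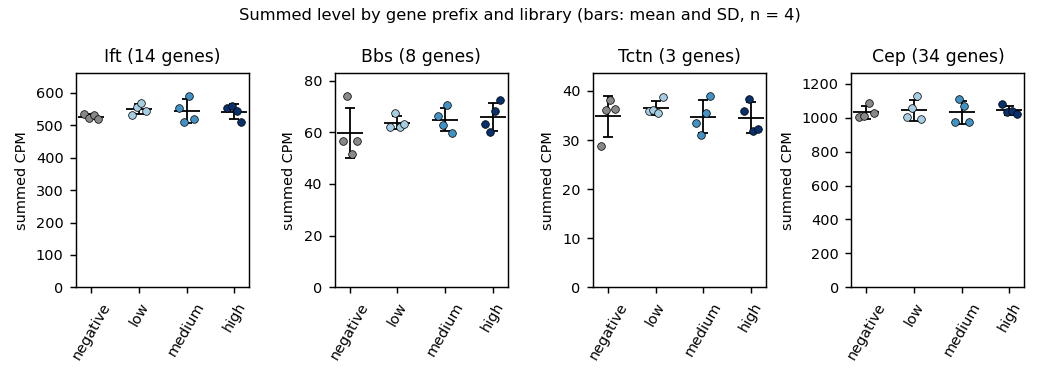
Summed CPM of the Ift, Bbs, Tctn and Cep genes (y axis, from 0) per library in the 4 gates (x axis, negative to high), with the mean and SD (n = 4). The sums stay nearly level, with Ift at 542.1 CPM in the high gate and 526.7 CPM in the negative gate.

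Negative library 3, low library 1 and medium library 2 deviated together from their gates, with correlations across genes of 0.177, 0.265 and 0.321 between the pairs. Negative 3 was the negative library nearest the high gate for Cep70, Cep83 and Ift81. Without these 3 libraries, 4 members rose and 2 fell in the high gate, with Cep83 (0.71, adjusted p = 0.00342), Ift81 (0.61, adjusted p = 0.0211) and Cep135 (0.43, adjusted p = 0.0444) joining Cep70. Their part in the gate differences was not tested further, and this setting was chosen after the data were seen.

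**Figure D5:**
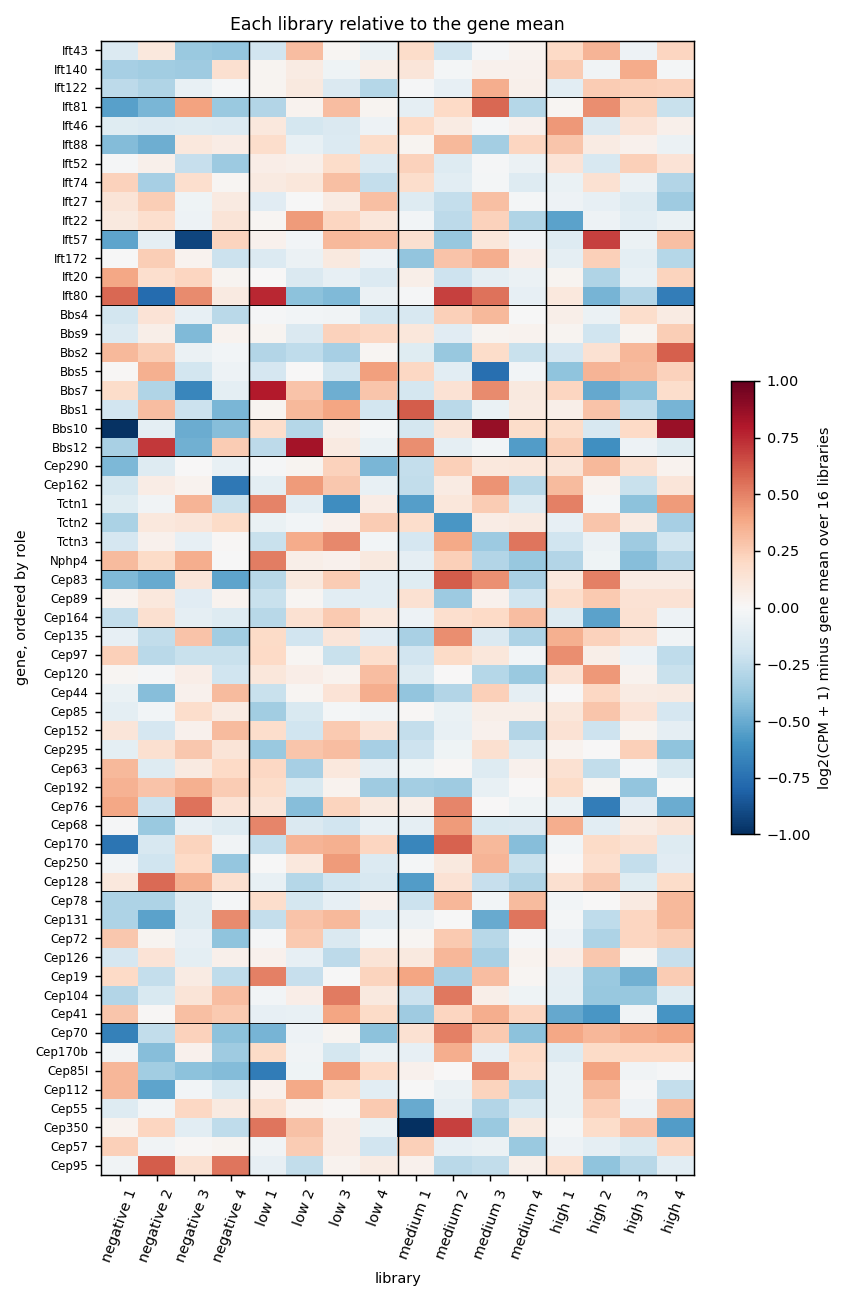
Level of 60 members in each library as log2(CPM + 1) minus the member's mean over 16 libraries, in colour from -1 (blue) to 1 (red), with genes ordered by role and libraries by gate. No block of rows is coloured by gate; Cep70 is red in all 4 high libraries and Cep41 is blue in 3 of them.

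Cilium and centrosome genes with other symbols were followed as 10 lists with 135 tested genes, of which 6 rose and 10 fell in the high gate (11.9%). Without the Hedgehog list, it was 4 higher and 7 lower of 119 (9.24%), where the background was 16.8% as given above. No gene passed among 10 other IFT genes or 18 genes of the basal body and the start of ciliogenesis. Of 8 further BBSome genes, 1 rose: Rab3ip, also known as Rabin8, which activates Rab8 for membrane delivery (0.42, adjusted p = 0.00386). Of 11 motor genes, Wdr60, an intermediate chain of the retrograde dynein, rose by 0.72 (adjusted p = 0.00276), and Kif17, a tip-directed kinesin, fell by 1.75 (adjusted p = 0.0159).

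Of 18 transition zone genes, Ahi1, a Joubert syndrome gene, fell by 0.37 (adjusted p = 0.0320). Of 10 ciliary membrane genes, Inpp5e, the phosphatase that sets ciliary phosphoinositides, rose by 0.61 (adjusted p = 0.0207). Of 28 genes of centriole duplication and pericentriolar material, Akap9 was higher by 0.41 (adjusted p = 0.0198) and Haus1, of the augmin complex, fell by 0.43 (adjusted p = 0.0198). Leaving out single libraries ended the calls of Kif17 (without negative 1 or high 4, adjusted p up to 0.0513), Ahi1 (up to 0.111), Inpp5e (without negative 1, high 1 or high 3, up to 0.0888), Akap9 (without negative 1, 2 or 4 or high 1 or 2, up to 0.0698) and Haus1 (without negative 2 or high 1 or 2, up to 0.0764). Ahi1 lost its call without negative 2, 3 or 4 or high 1, 3 or 4. Rab3ip and Wdr60 kept their calls in all 25 other settings tried.

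Rfx4 and Rfx2, which encode RFX factors of the family that binds the X-box, were lower in the high gate, and they were 2 of 7 tested regulators. Rfx4 had 21.6, 15.2, 15.4 and 27.1 CPM in the high libraries, against 41.0, 34.0, 59.5 and 48.0 CPM in the negative libraries. The groups did not overlap, and the log2 difference was -1.22 (SE 0.177, adjusted p = 1.64e-05). Rfx2 had 5.65, 4.30, 3.08 and 1.52 CPM in the high libraries, against 6.32, 9.38, 8.37 and 9.21 CPM in the negative libraries, a difference of -1.15 (adjusted p = 0.00692).

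Rfx3, which is needed for nodal cilia in mouse, gave 0.51 (adjusted p = 0.160), and Foxj1 had 2.39 ± 1.57 CPM in high libraries and 2.27 ± 0.706 CPM in negative libraries (SD, n = 4 each; adjusted p = 0.997 by edgeR). Rfx4 is also one of the neural progenitor markers listed above. Of 9 tested motile cilium genes, Cfap43 (-0.998, adjusted p = 0.0381) and Rsph1 (-1.52, adjusted p = 0.0498) were lower, and both calls were lost in many of the settings, 11 of 25 for Cfap43 and 16 of 24 for Rsph1, single libraries among them.

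Of 16 Hedgehog genes that act at the cilium, 2 rose and 3 fell in the high gate, beside the background of 16.8% given above. Ptch1, the receptor and itself a target, gave 2.03 (adjusted p = 1.98e-08), and Hhip, a target that binds the ligand, gave 2.13 (adjusted p = 0.000914). Boc, a co-receptor, gave -2.06 (adjusted p = 4.56e-08), Gli2 gave -0.98 (adjusted p = 0.000566) and Gli3, named after its value was seen, gave -0.59 (adjusted p = 0.0228). The Gli3 call was lost without negative 1 or high 1, 2 or 4, with an adjusted p of up to 0.0771. Sufu, which restrains Gli factors, gave 0.23 (adjusted p = 0.339), and Smo, the transducer that enters the cilium, gave 0.32 (adjusted p = 0.282).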

How the data were processed

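The data were 16 BRB-seq libraries in 4 FOXA2 gates, 4 per gate, grouped by their labels. The authors deposited raw counts per gene, with no normalization. Per the submitters' processing notes, reads were handled with cutadapt 1.18, STARsolo 2.7.9a and DESeq2 1.42.0 on GRCm38; the sources used here do not give the annotation, strand setting or collapsing of molecular identifiers. If strand was not used, overlapping genes on opposite strands share reads. Among the called members, Cep70 shares 239 and 27 exonic bases with genes on the opposite strand and Cep95 shares 67. Those opposite-strand genes have no row in the counts. In addition, 3′ counts do not compare levels between genes.

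From the counts, edgeR 4.0.16 (R 4.3.3, limma 3.58.1) fitted all 16 libraries with a quasi-likelihood model after its filter for low counts (13891 of 35976 genes kept, at least 99.7% of counts per library) and TMM scaling, whose factors ran from 0.97 to 1.05. P-values were adjusted by Benjamini-Hochberg over all genes tested, with a threshold of 0.05. The SE was worked back from the same fit, as the size of the log2 difference over the square root of its F statistic. The two-sided 95% intervals use this SE and are approximate. CPM uses the TMM-scaled totals, and 1 count was worth 0.100 to 0.306 CPM by unscaled total. Library pairs within a gate differed by more than sampling noise (chi-square per degree of freedom of at least 4.25 over 24 pairs). Coordinates are GENCODE M21 on GRCm38, which matched 62 of 62 members.

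The members and lists were chosen with earlier results of these data known. Members named whatever their result were a fixed set, the 2 most abundant of each prefix and the called ones; Ift22, Ift43, Ift57, Ift80, Cep68, Cep76, Cep128, Cep250, Foxj1, Sufu and Smo were named after their values were seen. A few items are not reported here. Up to 4 genes per related list were named by smallest p. The script was tested on simulated data. Alternatives were RLE size factors, no filter, a replicate block, a fit of 2 gates only, equal depth by thinning, DESeq2 1.42.0, robust dispersion shrinkage (chosen after seeing the data), and leaving out libraries.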

Additional observations from a re-analysis of the deposited data

Results flagged for a closer look

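Libraries that stood apart from the other 3 of their gate were looked for in 172 groups of 4 with Dixon's test, which chance alone passes in about 1 of 20 groups. There were 11.

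In the high gate, Cep41 was 15.3 CPM in library 3, against 10.0 to 10.6 CPM in the others, Cep83 was 69.8 CPM in library 2, against 51.9 to 52.9 CPM, and Ift122 was 23.6 CPM in library 1, against 30.1 to 30.6 CPM.

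In the medium gate, Tctn2 was 12.7 CPM in library 2, against 20.6 to 22.0 CPM in the others. In the low gate, Bbs4 was 20.3 CPM in library 4, against 22.6 to 22.9 CPM, and Nphp4 was 9.75 CPM in library 1, against 6.78 to 7.11 CPM.

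In the negative gate, Cep41 was 15.8 CPM in library 2, against 18.9 to 19.5 CPM, and Cep97 was 19.6 CPM in library 1, against 13.5 to 14.0 CPM. Ift140 was 24.0 CPM in library 4, against 16.4 to 16.7 CPM. Cep83, at 53.5 CPM against 33.8 to 35.8 CPM, and Ift81, at 47.9 CPM against 24.5 to 27.6 CPM, stood apart in negative library 3.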

How the results depend on the processing

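Of 950 values of the 38 named members under 25 other settings, 921 kept their side of the threshold, 14 lost a call, 15 gained one and none called turned its sign. Among the 921 were 18 uncalled values, in 9 members, with the other sign. Between high and negative, 1 member was called higher in the report; this became 2 with no filter, with the replicate block, with 2 gates only and with thinning, 3 without low 1 and medium 2, 4 without negative 3 as well, and 0 to 3 leaving out 1 library at a time. The 2 called lower became 0 to 2 leaving out 1 library. Between medium and negative, the 0 called higher became 1 with no filter and with the block, and 0 to 1 leaving out 1 library; the 0 called lower became 1 with no filter, with thinning, without low 1 and medium 2 and with DESeq2, and 0 to 1 leaving out 1 library. Between high and low, the 0 called higher became 1 with no filter, the block and 2 gates only, and the 0 called lower became 1 with thinning; leaving out 1 library gave 0 to 1 in each direction. Over all 4 gates, 0 became 3 with no filter, 2 with the block, with robust shrinkage, with DESeq2 and without negative 3, low 1 and medium 2, 1 without low 1 and medium 2 alone, and 0 to 2 leaving out 1 library. On unscaled totals the summed Ift level in the negative gate was 517.8 CPM. The cause of these changes was not tested.

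The sample titles run through the 4 gates of each replicate number in turn, but do not say what a number stands for. Of 24 same-numbered pairs, 7 correlated above 0.1 (-0.0992 to 0.249). Differently numbered pairs ran from -0.232 to 0.321, the highest being low 1 with medium 2. Of 16 libraries, 11 correlated best with their own number, a hint of pairing from the data and not the design. The main test did not pair the libraries. With the replicate block, Cep83 passed between high and negative (0.53, adjusted p = 0.0171). Cep41 (adjusted p = 0.00839), Cep70 (adjusted p = 0.00928) and Cep95 (adjusted p = 0.0240) kept their calls with it. Over all genes, the 116 calls between high and medium became 248 with no filter, 287 without low 1 and medium 2, 345 without negative 3 as well, 216 without medium 2, 76 without medium 3, 75 without medium 4 or high 2 and 65 without high 1. The 98 between medium and low became 199 with no filter, 46 with 2 gates only, 148 with DESeq2, 62 without low 4 and 54 without low 3 or medium 1. No member was called in any of these. Depth limits the lowest members most: Bbs7 has the widest interval.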
